A study of Saccharomyces cerevisiae with 36 samples.

Results

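The change in the polysome to non-polysome ratio of messenger RNAs after amino acid starvation was measured in wild-type Saccharomyces cerevisiae, on 8 of the 36 Affymetrix yeast arrays of the series. The 8 arrays are all those of the wild-type strain that carry gradient pools: 2 arrays each of starved polysome, starved non-polysome, fed polysome and fed non-polysome RNA. The wild-type was BY4742, a MATalpha haploid laboratory strain. Starved cells were kept for 30 min in synthetic medium without amino acids, and fed cells came from the same split cultures and were kept in medium with them. All cells, fed ones included, received cycloheximide, which holds ribosomes on messages, before lysis and separation on sucrose gradients. The other arrays hold wild-type total RNA (4 arrays) and the pools and total RNA of strains deleted for MSN5 or MTR10, karyopherin genes of nuclear transport. The labels call the 2 arrays of each group biological replicates, and this number limits the precision of every value.

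A message on which several ribosomes sit at once sediments with the polysomes, and a message with none or few ribosomes sediments higher in the gradient, in the non-polysome pool. The ratio between the pools is therefore read as a measure of how fully a message is engaged in translation. When yeast runs short of amino acids, uncharged tRNAs activate the kinase Gcn2, which phosphorylates eIF2 and lowers initiation on most messages. Translation of the transcription factor Gcn4 rises under the same condition through short upstream open reading frames (uORFs) in its leader, and Gcn4 in turn switches on genes of amino acid synthesis. Messages for ribosomal proteins and ribosome assembly are repressed in the same response.

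Signals below are log2 RMA values, a scale on which the arrays ran between 3.42 and 14.61. RMA gives every array the same distribution of signals, so a ratio here is relative to the other messages of the same pool and says nothing about the total amount of RNA in polysomes. The ratio of a gene is its polysome minus its non-polysome signal, and its shift is the ratio in starved minus the ratio in fed cells. Changes are log2 estimates ± the standard error of the limma fit, and a gene was called at a Benjamini-Hochberg adjusted p under 0.05 over the 5338 genes tested.

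The strain labels were read against their markers. On the 8 arrays MSN5 gave 10.94 to 11.99 and MTR10 9.99 to 10.94, against 3.64 to 7.23 for MSN5 on the pool arrays of msn5 and 3.64 to 5.48 for MTR10 on those of mtr10. The 5 measured MATalpha-specific genes summed to a log2 signal of 14.85 to 14.99 on the starved and 15.21 to 15.31 on the fed wild-type pool arrays. The 7 measured MATa-specific genes, which MATalpha cells keep off, summed to 14.82 to 15.10 on the 4 starved and 10.46 to 11.40 on the 4 fed arrays, with no overlap. All 7 were called higher in polysome, non-polysome and total RNA, against 36.1%, 31.1% and 31.4% of all genes. Whether more cells or more RNA per cell carried them cannot be told apart. Their part in the shifts was not tested. URA3, LEU2 and LYS2, which BY4742 lacks, were not analysed here.

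After 30 min without amino acids the polysome to non-polysome ratio moved for a large part of the genome and in both directions. Of 5338 genes, 39.7% were called by the limma fit. There were 1242 that had a higher ratio in starved than in fed cells (23.3%) and 876 that had a lower one (16.4%). Of the genes named by rule, HXT14, of the hexose transporter family, rose most, with a shift of 2.27 ± 0.34 (adjusted p = 4.93e-05). The regulator of the unfolded protein response HAC1 and the RNA-binding protein gene SRO9 fell most, with shifts of -3.11 ± 1.01 (adjusted p = 0.0185) and -2.79 ± 0.47 (adjusted p = 0.000159). The ratio was called lower for 25.7% of large subunit ribosomal proteins, 39.7% of mitochondrial ribosomal proteins and 29.5% of tRNA maturation genes. For aromatic amino acid genes the share was 61.5%, and for small subunit proteins 18.9%, near the 16.4% of all genes. The shares moved in MAS5 signals, the other deposited summary. Large subunit proteins gave 93.2% there after centring by array, against 23.4% of all genes. Mitochondrial ribosomal proteins gave 17.8% without centring, against 13.5%. Most genes of arginine and of sulfur amino acid synthesis rose in both pools.

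Most shifts were small. The median over all genes was 0.08 and the middle 90% of genes lay between -0.94 and 0.89. A shift of at least 1 on the log2 scale was called upward for 151 genes (2.83%) and downward for 203 (3.8%). The ratios spread more widely in starved than in fed cells, with a standard deviation across genes of 0.70 against 0.57. The zero of this scale moved with the summary method, and the split of 1242 higher and 876 lower calls became 1036 higher (19.4%) and 1249 lower (23.4%) in MAS5 signals centred on each array's median. It became 2012 higher (37.7%) and 721 lower (13.5%) in MAS5 signals without centring, and 1019 higher and 1027 lower when the RMA arrays were centred on genes outside the ribosome lists.

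**Figure D1:**
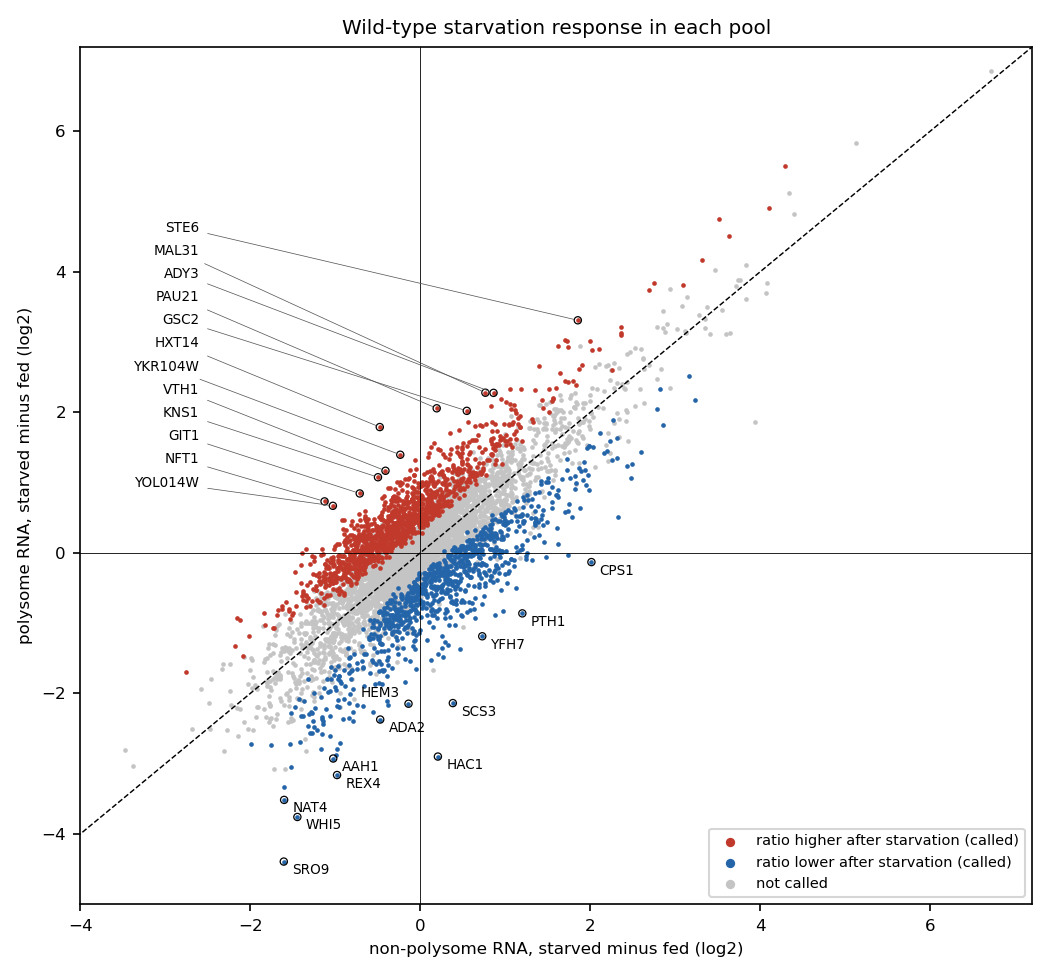
Starved minus fed change in polysome RNA (vertical axis, log2) against that in non-polysome RNA (horizontal axis, log2) for 5338 genes in wild-type, with called genes in red (ratio higher, 1242) and blue (ratio lower, 876). The distance from the dashed diagonal, where both pools change alike, is the shift, and the 12 largest called shifts in each direction are named.

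The pools contributed about equally to the rises. Of the 1242 genes with a higher ratio, 370 rose in polysome RNA with no call in non-polysome RNA, 367 fell in non-polysome RNA with no call in polysome RNA, and 118 did both. A further 244 rose in both pools and 124 fell in both, with one pool changing more than the other. For the remaining 19 neither pool was called alone. Of the 876 genes with a lower ratio, 248 fell in polysome RNA only, 198 rose in non-polysome RNA only, 88 did both, 193 fell in both pools, 137 rose in both and 12 had neither call. As background, 36.1% of all genes were called higher and 33.2% lower in polysome RNA, and 31.1% and 36% in non-polysome RNA. The plot of pool changes shows both sets as bands along the diagonal.

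HXT14 (YNL318C), of the hexose transporter family, had the largest rise among the genes named by rule. Its signals were 6.87 and 6.45 in starved polysome RNA and 7.91 and 7.52 in starved non-polysome RNA, against 4.76 and 4.98 in fed polysome RNA and 8.43 and 7.94 in fed non-polysome RNA. Both starved polysome arrays lay above both fed ones, while the starved non-polysome arrays lay just below the fed ones. The ratio was -1.05 in starved and -3.32 in fed cells, a 4.81-fold rise. The fed polysome signals lay at the level that the deleted MSN5 gave in fed polysome RNA of msn5 (4.75 and 4.67), so the size of this fold is uncertain. Of the 10 measured hexose transporter genes, a family looked at after its values were seen, 2 were called higher and 0 lower. These shares, 20% and 0%, were not above the 23.3% and 16.4% of all genes. The other called gene was HXT5 with 0.77 ± 0.30 (adjusted p = 0.0462), a call lost without any one array but starved polysome replicate 2 (0.63 to 0.92).

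PAU21 (YOR394W), a seripauperin of the cell surface, gave 7.50 and 7.44 in starved polysome RNA and 7.66 and 7.44 in starved non-polysome RNA, against 5.38 and 5.44 in fed polysome RNA and 7.30 and 7.42 in fed non-polysome RNA. The polysome arrays separated by condition and the non-polysome arrays nearly touched, so that the rise of 1.86 ± 0.27 (adjusted p = 4.29e-05) came from the polysome side. Seripauperin genes are near-identical copies whose probes can share signal, so single members are uncertain. Of 13 measured members, chosen after their values were seen, 5 were called higher and 1 lower (38.5% and 7.69%, against 23.3% and 16.4% of all genes). The lower one was PAU17, with -1.29 ± 0.24 (adjusted p = 0.00038).

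NFT1 (YKR103W), a putative ABC transporter, gave 8.48 and 7.99 in starved polysome RNA and 5.81 and 6.26 in starved non-polysome RNA, against 7.67 and 7.34 in fed polysome RNA and 7.29 and 7.03 in fed non-polysome RNA. Its polysome signal was higher and its non-polysome signal lower in both starved arrays, and neither pool overlapped between conditions. The shift was 1.86 ± 0.35 (adjusted p = 0.000358). The neighbouring open reading frame YKR104W, which forms a single longer gene with NFT1 in some other strains, also rose, with 1.63 ± 0.34 (adjusted p = 0.000916). Its polysome signal rose by 1.40, and its non-polysome change of -0.24 was not called (adjusted p = 0.396).

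KNS1 (YLL019C), a LAMMER family protein kinase that takes part in repressing RNA polymerase III, gave 10.62 and 10.73 in starved polysome RNA and 9.21 and 9.58 in starved non-polysome RNA, against 9.59 and 9.62 in fed polysome RNA and 9.83 and 9.96 in fed non-polysome RNA. The starved polysome arrays were the highest of the 8 and the starved non-polysome arrays the lowest. The shift was 1.57 ± 0.20 (adjusted p = 1.18e-05). GIT1 (YCR098C), the transporter of glycerophosphoinositol, also rose in polysome RNA (0.84) and fell in non-polysome RNA (-0.71), with a shift of 1.56 ± 0.21 (adjusted p = 2.24e-05). VTH1 (YIL173W), a vacuolar sorting receptor homologue with a near-identical copy elsewhere in the genome, shifted by 1.58 ± 0.30 (adjusted p = 0.000428). YOL014W, an uncharacterised open reading frame, shifted by 1.70 ± 0.39 (adjusted p = 0.00194), with 0.67 in polysome and -1.03 in non-polysome RNA.

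In 4 of the 12 largest rises both pools were called higher, the polysome pool by more. GSC2 (YGR032W), a catalytic subunit of the enzyme that makes cell wall beta-1,3-glucan, gave 12.60 and 12.43 in starved polysome RNA and 11.48 and 11.76 in starved non-polysome RNA, against 10.39 and 10.59 in fed polysome RNA and 11.10 and 11.04 in fed non-polysome RNA. The starved arrays lay above the fed ones in both pools, and the ratio changed sign, at 0.89 in starved and -0.58 in fed cells. The shift was 1.47 ± 0.22 (adjusted p = 3.95e-05). STE6 (YKL209C), the exporter of the a-factor pheromone and a MATa-specific gene, gave 11.33 and 11.20 in starved polysome RNA and 11.27 and 11.69 in starved non-polysome RNA, against 8.00 and 7.91 in fed polysome RNA and 9.35 and 9.91 in fed non-polysome RNA. All 4 starved arrays were far above the 4 fed ones, together with the other MATa-specific genes given above, and the shift was 1.46 ± 0.25 (adjusted p = 0.000185). MAL31 (YBR298C), a maltose permease with near-identical copies, shifted by 1.51 ± 0.25 (adjusted p = 0.000109), and ADY3 (YDL239C), a protein of the meiotic spindle pole and spore wall, by 1.41 ± 0.28 (adjusted p = 0.000536). The polysome changes of these genes were 2.28 and 2.28, and their non-polysome changes 0.77 and 0.86.

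HAC1 (YFL031W) had the largest fall. Its message carries an intron that the endonuclease Ire1 removes in the unfolded protein response, and the unspliced form is held back from translation by base pairing between its intron and leader. The signals were 8.61 and 7.31 in starved polysome RNA and 13.32 and 13.62 in starved non-polysome RNA, against 9.99 and 11.73 in fed polysome RNA and 13.21 and 13.31 in fed non-polysome RNA. The starved polysome arrays lay below the fed ones, each pair with a wide spread, and the non-polysome arrays were near the top of the scale in both conditions. The ratio was -5.51 in starved and -2.40 in fed cells, 8.62-fold lower, with the largest standard error of the genes named by size. The call was lost without starved polysome replicate 2 (-2.46, adjusted p = 0.0867) or without fed polysome replicate 2 (-2.24, adjusted p = 0.114). In total RNA HAC1 changed by 0.52 ± 0.71 (adjusted p = 0.536).

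SRO9 (YCL037C), a La-motif RNA-binding protein that associates with translating ribosomes, gave 7.25 and 7.19 in starved polysome RNA and 9.66 and 10.97 in starved non-polysome RNA, against 11.25 and 11.98 in fed polysome RNA and 11.65 and 12.19 in fed non-polysome RNA. Both starved polysome arrays were lower than any other, and both pools fell without overlap. The shift was -2.79 ± 0.47 (adjusted p = 0.000159), 6.91-fold lower, and total RNA fell by 1.72 as well. REX4 (YOL080C), a putative RNA exonuclease of ribosomal RNA processing, had a shift of -2.18 ± 0.26 (adjusted p = 6.1e-06) from the arrays 7.63 and 7.40 in starved polysome RNA and 9.74 and 10.04 in starved non-polysome RNA, against 10.61 and 10.75 in fed polysome RNA and 10.91 and 10.84 in fed non-polysome RNA. The fed pools lay together and the starved pools apart from each other, both below the fed signals.

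CPS1 (YJL172W), a vacuolar carboxypeptidase that releases amino acids from peptides, fell by another route. Its signals were 9.65 and 9.59 in starved polysome RNA and 10.95 and 11.36 in starved non-polysome RNA, against 9.43 and 10.07 in fed polysome RNA and 9.10 and 9.19 in fed non-polysome RNA. The polysome arrays overlapped between conditions and the non-polysome arrays were far higher in starved cells, so the fall of the ratio came from the non-polysome side. The shift was -2.15 ± 0.45 (adjusted p = 0.000931). Total RNA of CPS1 rose by 1.07 ± 0.32 (adjusted p = 0.00571). HEM3 (YDL205C), the porphobilinogen deaminase of heme synthesis, was the reverse, with 6.07 and 6.02 in starved polysome RNA and 7.46 and 8.41 in starved non-polysome RNA, against 8.11 and 8.28 in fed polysome RNA and 7.65 and 8.50 in fed non-polysome RNA. Here the non-polysome arrays overlapped and the polysome arrays fell without overlap, for a shift of -2.01 ± 0.41 (adjusted p = 0.000842) that was not called in MAS5 signals without centring (-0.86, adjusted p = 0.0586).

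SCS3 (YGL126W), an endoplasmic reticulum protein of lipid metabolism, shifted by -2.52 ± 0.64 (adjusted p = 0.00403), with -2.14 in polysome RNA and 0.38, not called, in non-polysome RNA. YFH7 (YFR007W), a putative kinase, shifted by -1.92 ± 0.34 (adjusted p = 0.000222), with a fall in polysome RNA (-1.19) and a rise in non-polysome RNA (0.73). NAT4 (YMR069W), an acetyltransferase of histones, shifted by -1.91 ± 0.47 (adjusted p = 0.00306) and was lower in both pools, with starved polysome signals (5.16 and 4.72) near the level of a deleted gene. The shift of ADA2 (YDR448W), a coactivator subunit of the SAGA complex, was -1.90 ± 0.48 (adjusted p = 0.0039), and its starved non-polysome signals overlapped the fed ones. The call of ADA2 was lost in a fit to the 8 arrays alone (adjusted p = 0.0529), and without starved polysome replicate 2 the shift was -1.18 (adjusted p = 0.0346).

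The remaining falls lost their calls when single arrays were left out. WHI5 (YOR083W), a repressor of G1/S transcription, gave 5.49 and 4.61 in starved polysome RNA and 7.64 and 7.51 in starved non-polysome RNA, against 8.22 and 9.40 in fed polysome RNA and 8.94 and 9.11 in fed non-polysome RNA. Its starved arrays lay below the fed ones in both pools, and the shift was -2.31 ± 0.78 (adjusted p = 0.0231). The starved polysome signals were near the level of a deleted gene. That call was lost without starved polysome replicate 2 (-1.87), fed polysome replicate 2 (-1.72), starved non-polysome replicate 1 (-2.25) or fed non-polysome replicate 1 (-2.23), and in MAS5 signals (-2.36, adjusted p = 0.106). PTH1 (YHR189W), a mitochondrial peptidyl-tRNA hydrolase, shifted by -2.06 ± 0.67 (adjusted p = 0.0192) and lost its call without the replicate 2 arrays of starved polysome (-1.56), fed polysome (-1.92) and fed non-polysome RNA (-1.96) or without starved non-polysome replicate 1 (-1.96), and in MAS5 signals (-1.66, adjusted p = 0.15). AAH1 (YNL141W), the adenine deaminase, shifted by -1.90 ± 0.53 (adjusted p = 0.00768) and lost its call without starved polysome replicate 1 (-1.33), without starved non-polysome replicate 2 (-1.23) and in a fit to the 8 arrays alone (adjusted p = 0.0547).

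**Figure D2:**
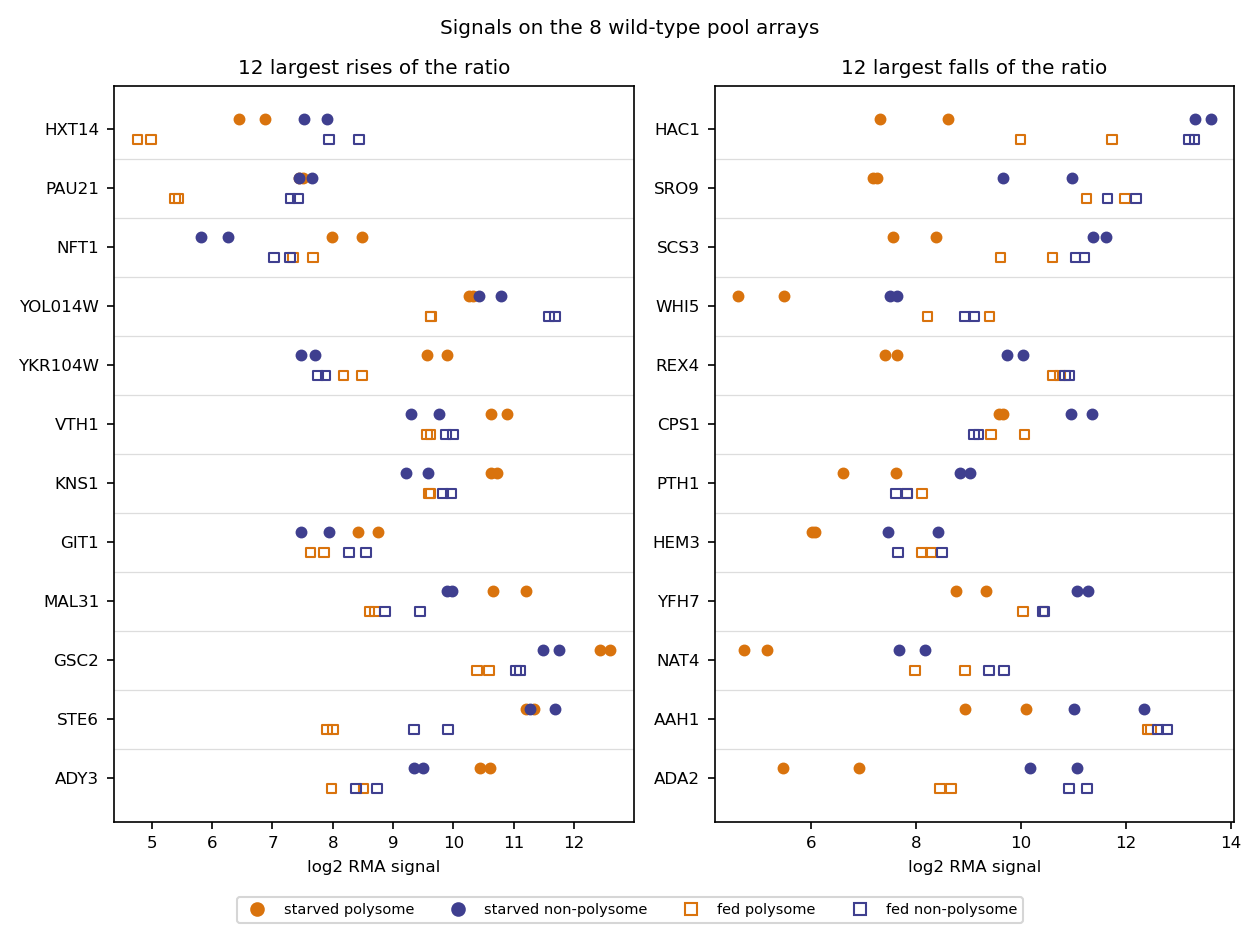
Log2 RMA signal of the 12 largest called rises (left) and falls (right) of the polysome to non-polysome ratio on each of the 8 wild-type pool arrays, starved in filled circles above and fed in open squares below, polysome orange and non-polysome blue. HXT14 and PAU21 separate on the polysome arrays, CPS1 on the non-polysome arrays, and HAC1 and AAH1 show wide gaps between replicates.

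GCN4 (YEL009C) and CPA1 (YOR303W), the arginine synthesis gene whose leader holds a regulatory uORF, were read whatever their values. GCN4 gave 13.52 and 13.48 in starved polysome RNA and 13.18 and 13.39 in starved non-polysome RNA, against 13.04 and 13.06 in fed polysome RNA and 13.59 and 13.44 in fed non-polysome RNA. Starved polysome signals were above fed ones and starved non-polysome signals below, with no overlap in either pool. The shift was 0.68 ± 0.14 (adjusted p = 0.00108), a 1.6-fold rise of the ratio. CPA1 gave 13.55 and 13.71 in starved polysome RNA and 13.31 and 13.34 in starved non-polysome RNA, against 12.04 and 12.13 in fed polysome RNA and 12.37 and 12.49 in fed non-polysome RNA, higher in starved cells in both pools, with a shift of 0.65 ± 0.14 (adjusted p = 0.000985). Neither shift was called in MAS5 signals, where GCN4 gave -0.08 centred and 0.23 without centring and CPA1 gave -0.09 and 0.22. The direction turned in the centred signals alone (adjusted p = 0.775 and 0.623), and the adjusted p without centring were 0.292 and 0.136.

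Of 21 measured messages known or reported to carry uORFs, 6 were called higher and 3 lower, close to the 23.3% and 16.4% of all genes (28.6% and 14.3%), with a median of 0.15 that turned to -0.02 in centred MAS5 signals. WSC3, a sensor of cell wall stress, rose by 1.23 ± 0.21 (adjusted p = 0.000193). ALA1, the alanyl-tRNA synthetase, gave 0.61 ± 0.13 (adjusted p = 0.000817), but -0.02 in centred MAS5 signals. DCD1, a deaminase of deoxycytidine monophosphate, fell, with -0.82 ± 0.15 (adjusted p = 0.000299), and HAC1 above is the lowest of this list. Among 14 genes of the Gcn2 kinase, eIF2 and its exchange factor eIF2B, 3 were called higher and 5 lower (21.4% and 35.7%, against 23.3% and 16.4% of all genes), with a median of -0.06. YIH1, an inhibitor of Gcn2 activation, fell with -1.61 ± 0.22 (adjusted p = 2.24e-05), with a change of -1.66 in polysome RNA and -0.05 in non-polysome RNA, the second not called. SUI3, the beta subunit of eIF2, GCD7, the beta subunit of eIF2B, and TIF5, which acts as the GTPase activator of eIF2, gave shifts of -0.55, -0.56 and -0.67, with adjusted p of 0.000205, 0.00132 and 0.00408.

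Messages of arginine and sulfur amino acid synthesis were more abundant in both pools of starved cells, with smaller changes of the ratio. All 7 measured arginine genes were called higher in polysome RNA (median 2.33) and in non-polysome RNA (median 2.27). For the ratio 2 were called higher and 2 lower (28.6% each, against 23.3% and 16.4% of all genes), with a median of -0.38. ARG8, acetylornithine aminotransferase, rose with 0.74 ± 0.15 (adjusted p = 0.000754), and ARG7, of ornithine synthesis, fell with -0.49 ± 0.17 (adjusted p = 0.0222), a call lost without starved polysome replicate 1, starved non-polysome replicate 2, fed polysome replicate 1 or fed non-polysome replicate 1 (-0.56 to -0.43). Of 33 sulfur and methionine genes, 30 were called higher in polysome RNA (median 2.32) and 29 in non-polysome RNA (median 2.02). Of their ratios 5 were called higher and 1 lower (15.2% and 3.03%), with a median of 0.14 that turned to -0.20 in centred MAS5 signals. MET17, which makes homocysteine from sulfide, was the 1 lower, with -0.50 ± 0.13 (adjusted p = 0.00545). SUL1, a sulfate permease, had the largest change of all genes in each pool, 6.86 in polysome and 6.72 in non-polysome RNA, and a shift of 0.14 ± 0.71 (adjusted p = 0.891).

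In several other synthesis pathways the non-polysome signal gained more than the polysome signal. Of 13 aromatic amino acid genes, 8 were called lower and 0 higher (61.5% and 0%, against 16.4% and 23.3% of all genes), with a median of -0.41. Their median changes were 0.77 in polysome and 1.03 in non-polysome RNA. ARO2, chorismate synthase, gave -0.98 ± 0.17 (adjusted p = 0.000204) and TRP3, of tryptophan synthesis, -0.72 ± 0.18 (adjusted p = 0.00333), with polysome and non-polysome changes of 1.17 and 1.89 for TRP3. Of 6 histidine genes, 3 were lower and 1 higher (50% and 16.7%, median -0.27). HIS2, histidinol phosphatase, fell with -1.77 ± 0.17 (adjusted p = 7.42e-07). Its polysome signal did not pass the test (-0.03, adjusted p = 0.837) while its non-polysome signal rose by 1.74. HIS7, of imidazole glycerol phosphate synthesis, gave 0.64 ± 0.15 (adjusted p = 0.00177) in RMA and -0.11 in centred MAS5 signals.

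Of 8 lysine genes, 3 were lower and 1 higher (37.5% and 12.5%, against 16.4% and 23.3% of all genes, median -0.41). Among the lower was LYS9, saccharopine reductase, with -0.79 ± 0.14 (adjusted p = 0.000305). Of 12 branched-chain genes, 2 were higher and 2 lower (16.7% each, median 0.01). LEU3, the transcription factor of the pathway, rose by 1.00 ± 0.15 (adjusted p = 4.58e-05), and ILV6, the regulatory subunit of acetolactate synthase, fell with -0.95 ± 0.15 (adjusted p = 7.49e-05). ILV2, its catalytic subunit, gave 0.41 ± 0.15 (adjusted p = 0.0316) by limma in RMA signals. In centred MAS5 signals it was called the other way, at -0.51 (limma, adjusted p = 0.00814). The RMA call was lost without starved polysome replicate 2, starved non-polysome replicate 1, fed polysome replicate 1 or fed non-polysome replicate 2 (0.29 to 0.54). Of 25 other amino acid genes, 10 were lower and 3 higher (40% and 12%, median -0.22). Among the lower were SHM1, the mitochondrial serine hydroxymethyltransferase, with -1.65 ± 0.15 (adjusted p = 7.42e-07) and THR1, homoserine kinase, with -0.69 ± 0.13 (adjusted p = 0.000512).

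Estimates for ribosomal protein messages lay below 0 almost throughout, and most were not called. Of 74 large subunit protein genes, 19 were called lower and 0 higher (25.7% and 0%, against 16.4% and 23.3% of all genes), and 73 of the 74 estimates were below 0, with a median of -0.34. Of 53 small subunit protein genes, 10 were called lower (18.9%, near the background in RMA) and 0 higher, with 52 estimates below 0 and a median of -0.34. In centred MAS5 signals 69 of the 74 and 45 of the 53 were called lower (93.2% and 84.9%, against 23.4% of all genes), and without centring 41 and 26 (55.4% and 49.1%, against 13.5%). In polysome RNA 60 of 74 and 44 of 53 were called lower, and in non-polysome RNA 4 and 4. RPL15A gave -0.83 ± 0.13 (adjusted p = 8.46e-05), RPL6B -1.24 ± 0.22 (adjusted p = 0.000212) and RPS14B -1.34 ± 0.37 (adjusted p = 0.00671). Most of these genes have a near-identical paralog, so values of single copies are uncertain. Mitochondrial ribosomal proteins, whose messages are translated in the cytosol, were lower for 29 and higher for 4 of 73, with a median of -0.34. In MAS5 signals 29 were lower centred and 13 without centring (39.7% and 17.8%). MRPS9 fell with -0.86 ± 0.13 (adjusted p = 7.58e-05). MRPL35 gave -0.70 ± 0.11 (adjusted p = 7.87e-05) in RMA but 0.13 in MAS5 signals without centring.

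Genes of ribosome assembly fell in both pools, by a larger median in the polysome pool. Of 77 genes of large subunit assembly, 75 were called lower in polysome RNA (median -1.71) and 73 in non-polysome RNA (median -1.22). The ratio was called lower for 18 and higher for 0 (23.4% and 0%, against 16.4% and 23.3% of all genes), with a median of -0.40. RRP15 shifted by -1.31 ± 0.19 (adjusted p = 4.02e-05), CIC1 by -1.71 ± 0.39 (adjusted p = 0.00185) and MRT4 by -1.24 ± 0.30 (adjusted p = 0.00289). Of 70 genes of the small subunit processome, 15 were lower and 1 higher (21.4% and 1.43%), with a median of -0.24. EMG1, a ribosomal RNA methyltransferase, gave -1.36 ± 0.21 (adjusted p = 7.49e-05), NOP58, a core protein of box C/D small nucleolar particles, -1.33 ± 0.25 (adjusted p = 0.000354), and IMP3 -1.60 ± 0.31 (adjusted p = 0.000512). Among 38 genes of RNA polymerases I and III the ratio went both ways, with 7 higher and 7 lower (18.4% each). The median of -0.13 turned to 0.10 in MAS5 signals without centring. RPC34, a subunit of polymerase III, fell with -1.81 ± 0.29 (adjusted p = 8.46e-05), while its initiation factors BRF1 and TFC3 rose with 1.26 ± 0.20 (adjusted p = 7.24e-05) and 0.95 ± 0.19 (adjusted p = 0.000628).

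Messages for translation factors, tRNA synthetases and proteins of tRNA maturation were mixed or lower. Of 21 initiation factor genes, 4 were lower and 1 higher (19% and 4.76%, against 16.4% and 23.3% of all genes, median -0.12). HCR1, a factor associated with eIF3, gave -0.88 ± 0.17 (adjusted p = 0.000526) and CDC33, the cap-binding protein eIF4E, -0.69 ± 0.14 (adjusted p = 0.000612). Of 19 elongation and termination genes, 8 were lower and 3 higher (42.1% and 15.8%, median -0.12). CAM1, a subunit of elongation factor 1B, fell with -1.36 ± 0.21 (adjusted p = 7.1e-05), and HEF3, a paralog of elongation factor 3, rose with 1.38 ± 0.24 (adjusted p = 0.000185). SUP35, the release factor eRF3, gave 0.67 ± 0.15 (adjusted p = 0.00132) by falling more in non-polysome (-1.07) than in polysome RNA (-0.40). Of 21 tRNA synthetase genes, 3 were lower and 2 higher (14.3% and 9.52%), with a median of 0.00. In centred MAS5 signals 15 were lower and 0 higher (71.4% lower, against 23.4% of all genes, median -0.65). Without centring 9 were lower and 0 higher (42.9% lower, against 13.5% of all genes, median -0.34). Of 44 genes of tRNA maturation and nuclear export, 13 were lower and 2 higher (29.5% and 4.55%), with a median of -0.38, and in MAS5 signals 14 were lower centred and 8 without centring (31.8% and 18.2%). RNA1, the GTPase activator of nuclear transport, fell with -1.28 ± 0.12 (adjusted p = 7.42e-07), with opposite changes in polysome (-0.70) and non-polysome RNA (0.58). TRM8, a tRNA methyltransferase, and LHP1, the yeast La protein, gave -1.18 ± 0.24 (adjusted p = 0.000642) and -1.52 ± 0.31 (adjusted p = 0.000857).

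**Figure D3:**
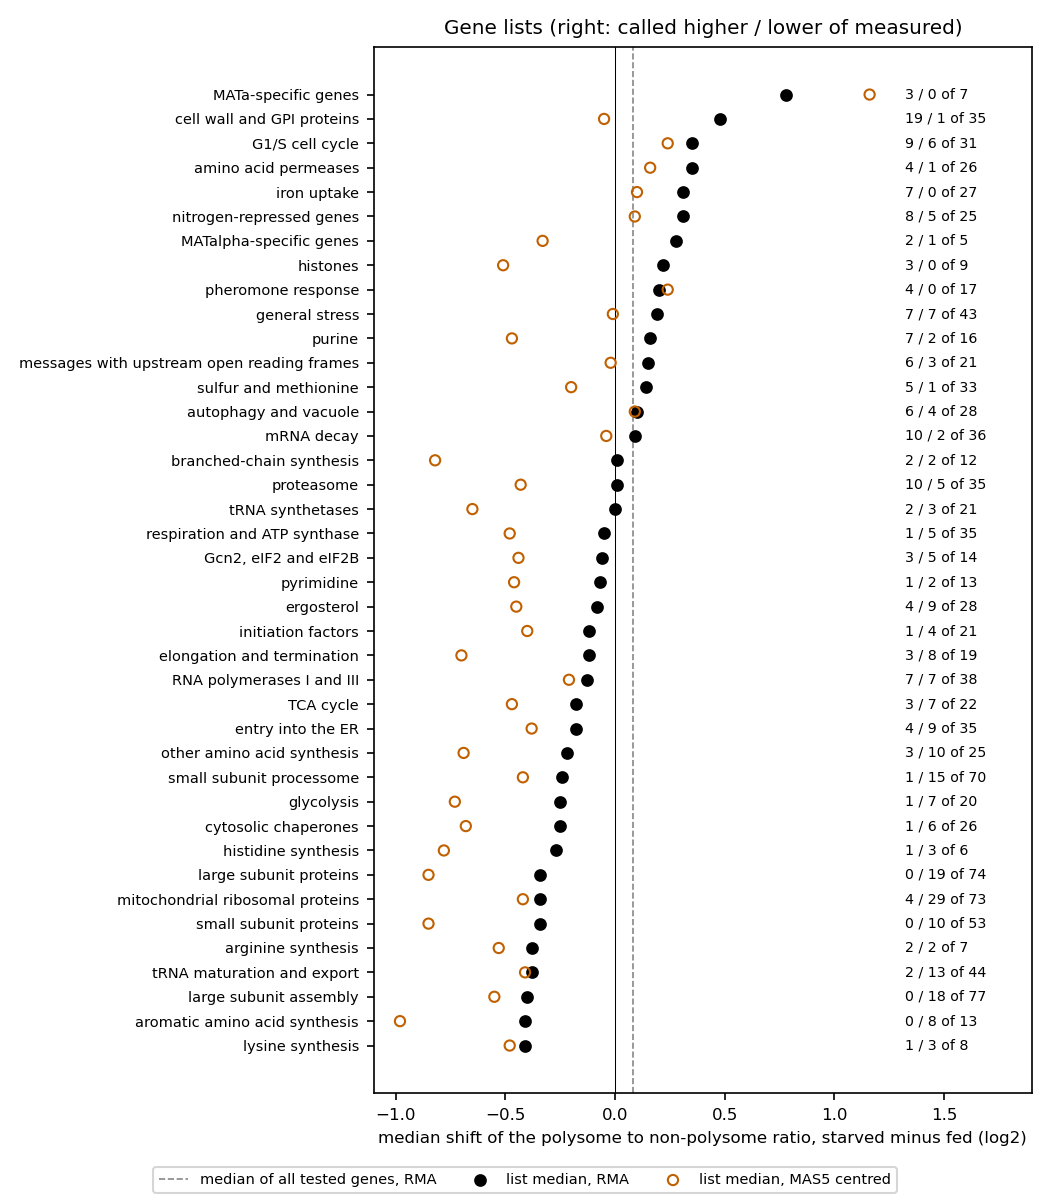
Median shift of each gene list in wild-type (log2) in RMA signals (filled) and in MAS5 signals centred by array (open), with the number of members called higher and lower of those measured at the right. The dashed line is the median of all 5338 genes (0.08 in RMA). The cell wall list lies above it and the ribosome lists below it in RMA, and the open circles of most lists lie further left.

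In RMA signals the cell wall list had the largest share of called rises among the lists. Of 35 genes of the cell wall and of GPI-anchored surface proteins, 19 were called higher and 1 lower (54.3% and 2.86%, against 23.3% and 16.4%), with a median of 0.48. This direction did not hold in centred MAS5 signals, where 5 were higher and 5 lower with a median of -0.05, and without centring 10 were higher and 2 lower. The glucanase-like SCW4 gave 0.73 ± 0.13 (adjusted p = 0.000185), with 0.10 in polysome RNA (adjusted p = 0.344) and -0.64 in non-polysome RNA. UTH1 gave 0.72 ± 0.13 (adjusted p = 0.000258) and KRE9, of beta-1,6-glucan synthesis, 0.56 ± 0.13 (adjusted p = 0.00274), both turning below 0 in centred MAS5 signals (-0.18 and -0.01). In RMA 25 of the 35 fell in non-polysome RNA, while 3 rose and 10 fell in polysome RNA.

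Of 25 genes under nitrogen repression, 8 were higher and 5 lower (32% and 20%, against 23.3% and 16.4% of all genes), with a median of 0.31. DUR3, a urea permease, rose with 1.28 ± 0.14 (adjusted p = 2.77e-06), DAL7, of allantoin use, with 1.07 ± 0.17 (adjusted p = 8.49e-05) and MEP3, an ammonium permease, with 1.05 ± 0.17 (adjusted p = 8.46e-05). Of 26 amino acid permeases and related genes, 4 were higher and 1 lower (15.4% and 3.85%, median 0.35), both shares below those of all genes. Among the higher were DIP5, the permease for acidic amino acids, at 1.07 ± 0.17 (adjusted p = 0.000111) and CAN1, the arginine permease, at 0.68 ± 0.20 (adjusted p = 0.0117). Neither was called in MAS5 signals, where DIP5 gave 0.16 centred (adjusted p = 0.577) and 0.47 without centring (0.0771), and CAN1 0.16 (0.527) and 0.47 (0.0725). Of 27 iron uptake genes, 7 were higher, a share of 25.9% near the background, and 0 lower (median 0.31), with ISU1, a scaffold of iron-sulfur clusters, at 0.97 ± 0.14 (adjusted p = 3.47e-05) and FRE2, a ferric reductase, at 1.12 ± 0.28 (adjusted p = 0.00354). Of 28 autophagy and vacuole genes, 6 were higher and 4 lower (21.4% and 14.3%, near the background, median 0.10). ATG3 and ATG13 rose with 1.00 ± 0.13 (adjusted p = 1.87e-05) and 0.78 ± 0.15 (adjusted p = 0.000402), and ATG33, of mitophagy, fell with -0.99 ± 0.20 (adjusted p = 0.000665).

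General stress genes rose in both pools with little net movement. Of 43, 34 were called higher in polysome and 35 in non-polysome RNA. For the ratio 7 were higher and 7 lower (16.3% each, against 23.3% and 16.4% of all genes). The median shift was 0.19, and -0.01 in centred MAS5 signals. GLG1, a glycogenin, rose with 1.19 ± 0.18 (adjusted p = 7.1e-05), and HSP31 fell with -1.06 ± 0.24 (adjusted p = 0.00165). Of 26 cytosolic chaperone genes, 6 were lower and 1 higher (23.1% and 3.85%, median -0.25). Among the lower was the Hsp90 cofactor CPR6 with -1.24 ± 0.14 (adjusted p = 2.25e-06). Of 35 proteasome genes, 10 were higher and 5 lower (28.6% and 14.3%, median 0.01). In MAS5 signals the counts turned. Centred, 0 were higher and 17 lower (48.6% lower, against 23.4% of all genes, median -0.43). Without centring 4 were higher and 8 lower (22.9% lower, against 13.5% of all genes, median -0.12). RPN4, the transcription factor of the proteasome, rose with 0.75 ± 0.15 (adjusted p = 0.000571), and SCL1 and PRE5, both core subunits, fell with -0.52 ± 0.10 (adjusted p = 0.000402) and -0.58 ± 0.11 (adjusted p = 0.00042).

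All 7 MATa-specific genes were called higher in both pools, against 36.1% of all genes in polysome and 31.1% in non-polysome RNA. Their medians were 4.51 in polysome and 4.08 in non-polysome RNA. The ratio was called higher for 3 and lower for 0 (42.9% and 0%, against 23.3% and 16.4% of all genes), with a median shift of 0.78. MFA2, an a-factor gene, and BAR1, the protease that degrades alpha-factor, gave 1.21 ± 0.46 (adjusted p = 0.0407) and 0.87 ± 0.33 (adjusted p = 0.0425), the call of MFA2 being lost without any one array but starved non-polysome replicate 1 (0.96 to 1.46). The call of BAR1 was lost without any one array but that and starved polysome replicate 2 (0.68 to 1.06). Among the 5 MATalpha-specific genes, 2 were higher and 1 lower (40% and 20%, median 0.28, and -0.33 in centred MAS5 signals). SAG1, the alpha-agglutinin, rose with 0.93 ± 0.19 (adjusted p = 0.000925) through a lower non-polysome signal (-0.97). MF(ALPHA)2, an alpha-factor gene, fell with -0.87 ± 0.27 (adjusted p = 0.0133), a call lost without starved polysome replicate 1 (-0.98 to -0.75 over the arrays left out). Of 17 genes of the pheromone response, 4 were higher and 0 lower (median 0.20). The share called higher, 23.5%, was near the 23.3% of all genes. GPA1, the G protein alpha subunit, gave 1.00 ± 0.13 (adjusted p = 1.18e-05).

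Of 31 G1/S cell cycle genes, 9 were higher and 6 lower (29% and 19.4%, against 23.3% and 16.4% of all genes, median 0.35). RNR1, the large subunit of ribonucleotide reductase, had a higher ratio, 1.07 ± 0.23 (adjusted p = 0.00112), since its non-polysome signal fell more (-2.76) than its polysome signal (-1.69). SWI6 and MCM7 gave 0.99 ± 0.20 (adjusted p = 0.000786) and 0.77 ± 0.13 (adjusted p = 0.000185), and RNR2, a small subunit of the same reductase, fell with -0.83 ± 0.16 (adjusted p = 0.000632). Of 9 histone genes, 3 were higher and 0 lower (33.3% and 0%, median 0.22), a direction that turned in MAS5 signals (-0.51 centred and -0.20 without centring). Of 36 mRNA decay genes, 10 were higher and 2 lower (27.8% and 5.56%, median 0.09). SKI2, a helicase of the exosome pathway, gave 0.95 ± 0.13 (adjusted p = 2.6e-05). CAF40, of the Ccr4-Not complex, gave 0.86 ± 0.14 (adjusted p = 0.000135) and DCP2, the decapping enzyme, 0.95 ± 0.21 (adjusted p = 0.0014). Of 16 purine genes, 7 were higher and 2 lower (43.8% and 12.5%, median 0.16, and -0.47 in centred MAS5 signals). BAS1, a transcription factor of the pathway, rose with 1.00 ± 0.22 (adjusted p = 0.00159) and ADE8 fell with -1.15 ± 0.22 (adjusted p = 0.000402).

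Several metabolic and secretory lists had more falls than rises. The shares called lower were 35% for glycolysis, 32.1% for ergosterol, 31.8% for the TCA cycle and 25.7% for entry into the endoplasmic reticulum, and those for pyrimidines (15.4%) and respiration (14.3%) were near the 16.4% of all genes. Of 28 ergosterol genes, 9 were lower and 4 higher (median -0.08), among the lower ERG13, HMG-CoA synthase, with -0.99 ± 0.13 (adjusted p = 1.87e-05) and ERG26 with -0.85 ± 0.14 (adjusted p = 9.78e-05). Of 13 pyrimidine genes, 2 were lower and 1 higher (median -0.07), the lower ones being URA6, the uridylate kinase, with -1.16 ± 0.18 (adjusted p = 5.61e-05) and URA7, a CTP synthase, with -1.73 ± 0.43 (adjusted p = 0.00354). Of 20 glycolysis genes, 7 were lower and 1 higher (median -0.25), among the lower ENO2, an enolase, with -0.37 ± 0.10 (adjusted p = 0.00705). Of 22 TCA cycle and related genes, 7 were lower and 3 higher (median -0.18), with MDH3, a malate dehydrogenase, at -0.91 ± 0.14 (adjusted p = 7.39e-05) and IDP1, an isocitrate dehydrogenase, at -1.06 ± 0.18 (adjusted p = 0.000184). Of 35 respiration and ATP synthase genes, 5 were lower and 1 higher (median -0.05), among the lower ATP3 with -0.77 ± 0.14 (adjusted p = 0.000247). Of 35 genes of entry into the endoplasmic reticulum, 9 were lower and 4 higher (median -0.18), with SPC3 and SEC11 of the signal peptidase at -1.16 ± 0.17 (adjusted p = 4.5e-05) and -1.05 ± 0.15 (adjusted p = 2.39e-05) and OST6 of the oligosaccharyltransferase at -1.14 ± 0.17 (adjusted p = 5.18e-05).

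Total RNA of the same strain, measured on 4 arrays that do not enter the ratio, gave a partly separate picture. In total RNA 31.4% of all genes were called higher, 32.8% lower and 35.8% not called. Of the 1242 genes with a higher ratio, 525 (42.3%) were higher in total RNA, 228 (18.4%) lower and 489 (39.4%) not called. Of the 876 with a lower ratio, 420 (47.9%) were lower, 194 (22.1%) higher and 262 (29.9%) not called. The shift correlated with the change in total RNA at r = 0.25 over the 5338 genes, which share arrays and are no replicates of each other. KNS1 changed by 0.74 in total RNA beside its shift of 1.57, and HXT14 by 0.37 (adjusted p = 0.186) beside 2.27. YFH7, MEP3 and SKI2 had no call in total RNA (0.05, 0.04 and -0.08, with adjusted p of 0.872, 0.791 and 0.49), whereas their ratios were called at -1.92, 1.05 and 0.95.

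The same shift was measured on arrays of the deletion strains, which share none with the wild-type. The fit gave each gene 1 estimate of its spread over all 36 arrays, however, so the calls in the strains are not independent. HAC1, for example, had a standard error of 1.01 in each strain. In msn5 1345 genes were higher (25.2%) and 992 lower (18.6%), and in mtr10 931 were higher (17.4%) and 800 lower (15%). Of the wild-type's 1242 rises, 1013 were also called in msn5 (81.6% of the wild-type's and 75.3% of msn5's) and 691 in mtr10 (55.6% and 74.2%). Of its 876 falls, 716 were also called in msn5 (81.7% and 72.2%) and 554 in mtr10 (63.2% and 69.2%). Calls in opposite directions numbered 0 for msn5 and 3 for mtr10. Across genes the wild-type shift correlated at r = 0.88 with that of msn5 and 0.82 with that of mtr10, as a description.

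The difference between strains was tested directly. Between wild-type and msn5 the shift differed at 1 gene (0.0187%), MSN5 itself, and between wild-type and mtr10 at 0 genes (0%) by limma. An unadjusted p under 0.05 was reached by 143 and 433 genes, 143 being below and 433 above a share of 0.05 of the 5338 genes. The simulated data described below did not cover this difference. Its standard errors were larger than those of a single shift (0.48 against 0.34 for HXT14). The counts of called genes thus do not show that the strains shift alike. They changed with the setting, to 0 and 1 genes in MAS5 signals, 1 and 2 with a replicate block, 8 and 5 with the block within condition, and 1 and 7 with an intensity trend. HXT14 shifted by 2.27 in wild-type, 1.78 in msn5 and 1.02 in mtr10, and SRO9 by -2.79, -2.21 and -3.00, all called. HAC1 shifted by -3.11 in wild-type, -0.92 in msn5 (adjusted p = 0.48) and -3.03 in mtr10 (adjusted p = 0.026). In msn5 the starved polysome arrays of HAC1 gave 7.83 and 11.75, a gap larger than the shift, and the difference of -2.19 from wild-type was not called (adjusted p = 1). GCN4 rose in all strains, by 0.68 in wild-type, 0.76 in msn5 and 0.50 in mtr10, in RMA signals.

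The lists are given in the deletion strains as counts, without a test of the difference between strains. The shares of all genes called lower were 18.6% in msn5 and 15% in mtr10, against 16.4% in wild-type, and those called higher 25.2% and 17.4%, against 23.3%. Large subunit proteins were lower for 54 of 74 in msn5 (73%) and 35 in mtr10 (47.3%), against 19 in wild-type (25.7%). Small subunit proteins were lower for 30 of 53 in msn5 (56.6%) and 16 in mtr10 (30.2%), against 10 in wild-type (18.9%). The cell wall list was higher for 18 of 35 in msn5 (51.4%) and for 6 in mtr10 (17.1%, near the background there), against 19 in wild-type (54.3%). The sulfur list was higher for 18 of 33 in each mutant (54.5%), against 5 in wild-type (15.2%). MATa-specific genes had median shifts of 0.78 in wild-type, 1.02 in msn5 and -0.04 in mtr10, where the summed signal of these genes on fed pool arrays was 12.92 to 14.02, against 10.46 to 11.40 in fed wild-type.

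**Figure D4:**
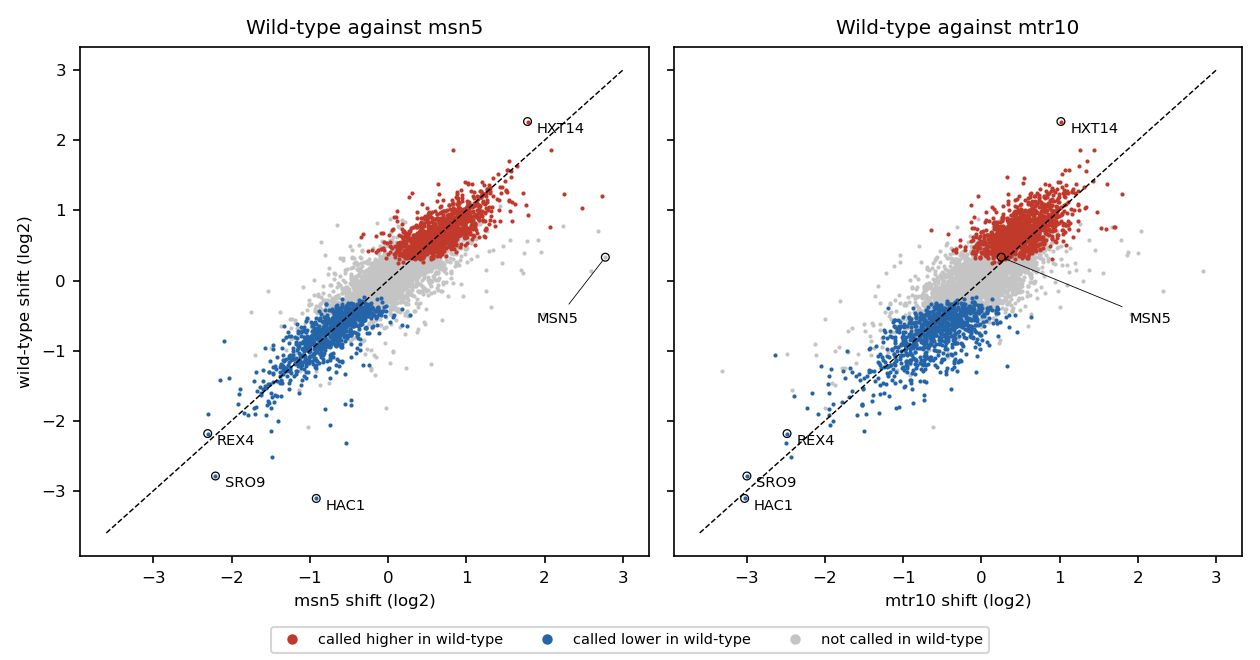
Shift in wild-type (vertical axis, log2) against the shift in msn5 (left) and in mtr10 (right), one point per gene, coloured by the wild-type call, with the dashed line of equal shifts. Points follow the line in both panels (r = 0.88 and 0.82 across genes), and MSN5 lies far to the right in its own deletion strain.

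The size of the shift went with signal level, and differently in the 2 deposited summaries. With genes divided into 4 equal bins by their signal in wild-type total RNA, the median RMA shift was 0.12 in the dimmest bin, 0.17 and 0.10 in the middle bins and -0.08 in the brightest. In MAS5 signals centred by array the medians were 0.36, 0.20, -0.04 and -0.59. Of the brightest bin 20.1% were called higher and 24.6% lower in RMA, against 3.67% and 55.2% in centred MAS5 signals. Large subunit protein genes had a median total RNA signal of 13.44, within the 11.55 to 14.53 of that bin, and their median shift was -0.34 in RMA and -0.85 in centred MAS5 signals. Median MAS5 signals were taken over all 10928 probe sets, against 5684 with RMA values, so they are not levels of the genes tested. They were 86.4 and 83.7 on the starved polysome and 122.9 and 115.4 on the starved non-polysome arrays. On the fed polysome arrays they were 35.6 and 44.3, and on the fed non-polysome arrays 93.9 and 94.2. Mean MAS5 signals over the same probe sets lay between 552.9 and 596.9 on the wild-type pool arrays. The part of the difference in medians in the shifts was not tested. Of the genes called higher in RMA, 757 (61%) were also called higher in centred MAS5 signals and 9 lower. Of those called lower, 733 (83.7%) were also called lower and 0 higher. Several genes named above lost their RMA call in centred MAS5 signals: ARG8, ALA1, SUP35, SCW4, UTH1, KRE9, DIP5, CAN1, ISU1, RPN4, SAG1, GPA1, HIS7 and MRPL35. Several lists had more falls in centred MAS5 signals than in RMA, set here against 23.4% of all genes called lower in centred MAS5 signals. Called lower there were 9 of 12 branched-chain (75%), 17 of 25 other amino acid (68%), 10 of 33 sulfur (30.3%), 14 of 19 elongation (73.7%) and 15 of 20 glycolysis genes (75%). So were 15 of 35 respiration (42.9%), 17 of 28 ergosterol (60.7%), 15 of 26 chaperone (57.7%), 8 of 16 purine (50%) and 7 of 9 histone genes (77.8%). The sulfur, respiration and purine shares lay under the 55.2% of the brightest bin. The MAS5 shift correlated with the RMA shift at r = 0.85 across genes.

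**Figure D5:**
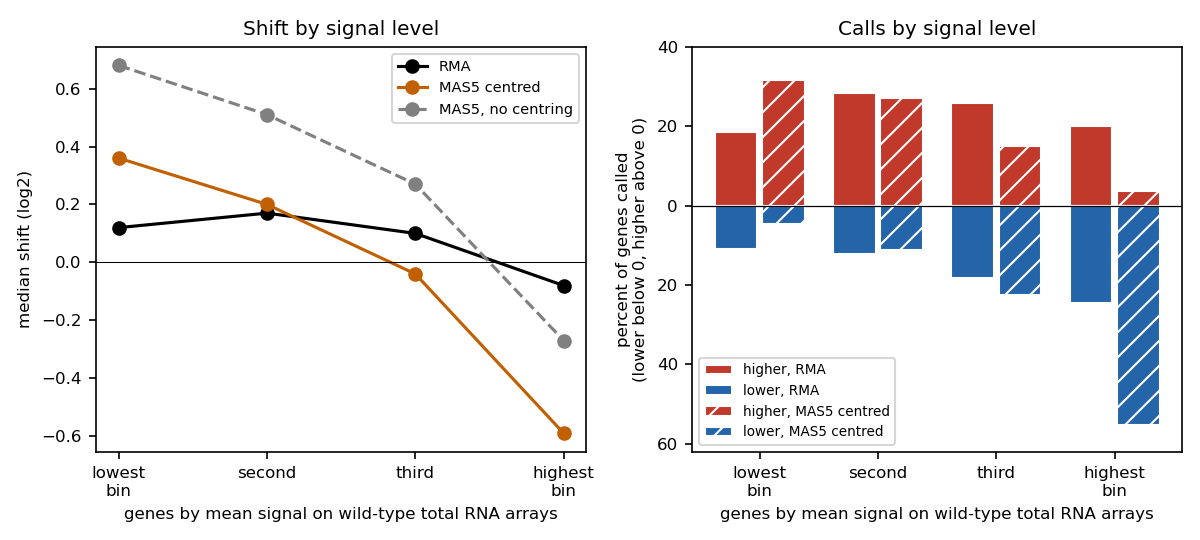
Median wild-type shift (left, log2) and percent of genes called higher (above 0) and lower (below 0, right) in 4 equal bins of genes by signal in wild-type total RNA, for RMA and MAS5 signals (MAS5 hatched at right). The RMA medians stay between -0.08 and 0.17, while the centred MAS5 medians run between 0.36 in the dimmest and -0.59 in the brightest bin.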

How the data were processed

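RNA of fed and starved wild-type, msn5 and mtr10 cells was hybridised to Affymetrix yeast arrays, 36 in 18 groups of 2. The deposited log2 signals were summarised by RMA, per the submitters' processing notes. The deposited MAS5 signal intensities and detection p-values were made by the authors, per the file headers, with settings not given in the sources used here. MAS5 columns a and b are not tied to replicate numbers, and 2 columns of wild-type total RNA most resembled arrays of the other condition and were left out of the MAS5 alternatives.

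From 5684 probe sets, 5379 had 1 gene, and for 39 genes with several the brightest on average was kept, giving 5338 genes. limma 3.58.1 in R 4.3.3 fitted 18 group means to all arrays, with Benjamini-Hochberg adjustment over all genes and two-sided tests. In simulated data for the wild-type shift over 5338 genes, 34% of shifts of 0.5, 76% of 1 and 100% of 2 were called. There 50 genes were changed for each size, all others had no shift, and the noise was normal and independent. In the data themselves 39.7% of genes were called, so these shares hold for the simulated setting only.

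The text names the 12 largest called shifts each way among genes with a detection p under 0.05 on all 8 arrays and 1 sign in all 16 choices of 1 array per group, GCN4, CPA1, and up to 4 called genes with the smallest p per list. The members and lists were chosen with earlier results of these data known. Alternatives covered the summary, centring, filter, variance trend, probe set rule, arrays fitted, replicate block and each array left out. The main fit did not use replicate numbers to pair samples, and only the replicate block alternatives did. No coordinates or sequences were used here.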

Additional observations from a re-analysis of the deposited data

Results flagged for a closer look

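MSN5, the exportin gene deleted in msn5, was the 1 gene whose shift differed between wild-type and msn5 by the test of the difference itself, at -2.44 on the log2 scale (limma, adjusted p = 0.000335). Its shift was 0.33 in wild-type and 2.78 in msn5. On the msn5 arrays the MSN5 signals were 4.49 and 3.96 in starved polysome and 3.64 and 3.92 in starved non-polysome RNA, against 4.75 and 4.67 in fed polysome and 6.85 and 7.23 in fed non-polysome RNA. On the wild-type pool arrays the gene gave 10.94 to 11.99. The fed non-polysome pair stood above the other pool arrays of msn5. Since the gene is deleted in msn5, its signals on those arrays are not a measure of an MSN5 message, and neither are the msn5 shift and the difference. Deleted MTR10 gave the same order on the mtr10 pool arrays. It had 5.48 and 5.17 in fed non-polysome RNA, against 4.49 and 4.67 in fed polysome and 3.64 to 4.18 in starved RNA. Whether such signals enter the shifts of dim wild-type genes was not tested.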

How the results depend on the processing

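The counts of calls for each comparison across genes stayed within 1.5 times their value under the other settings, except as follows. With an absolute log2 change of at least 1 as well, 354 wild-type shifts, 1223 polysome, 1020 non-polysome and 957 total RNA changes, 462 msn5 shifts and 285 mtr10 shifts were called. The wild-type shift gave 1614 to 1959 calls with single arrays left out. The wild-type minus msn5 difference was called at 8 genes with a replicate block within condition, at 0 in MAS5 signals centred or not, and at 1 to 3 with single arrays left out. The wild-type minus mtr10 difference was called at 2 genes with the replicate block, 5 with the block within condition, 7 with an intensity trend, 1 in MAS5 signals centred or not, and 0 to 1 with single arrays left out. The labels do not say that a replicate number marks a shared culture, and the main fit did not use the numbers to pair samples. Same-numbered deviations in wild-type correlated at 0.37 (starved) and 0.46 (fed) between the pools of a condition and at -0.04 to 0.20 across conditions. With the replicate block the wild-type shift gave 2382 calls, and with the block within condition 1745. Among the limma calls lost with the block within condition were WHI5 (adjusted p = 0.0501), ARG7 (0.0507), LYS5 (0.0549) and ILV2 (0.0906). Among the named genes every change of direction came from MAS5 signals. Centred, the shifts of GCN4 (-0.08), CPA1 (-0.09), ALA1 (-0.02), HIS7 (-0.11), ILV2 (-0.51), CIT2 (-0.13), UTH1 (-0.18), KRE9 (-0.01), HTA1 (-0.49), HTB1 (-0.54), AFB1 (-0.18) and PDC6 (0.25) turned, as did the medians of the sulfur (-0.20), histone (-0.51), MATalpha (-0.33) and purine lists (-0.47). The uORF (-0.02), cell wall (-0.05), stress (-0.01), mRNA decay (-0.04), branched-chain (-0.82) and proteasome medians (-0.43) were below 0 there too. Without centring, LYS5 (0.04), ILV2 (-0.19), MRPL35 (0.13), PDC6 (0.57), GND2 (0.01), HTA1 (-0.17) and HTB1 (-0.22) turned, with the polymerase (0.10), histone (-0.20), purine (-0.16), MATalpha (-0.02), branched-chain (-0.51) and proteasome medians (-0.12). The cause was not tested. With 2 arrays a group, shifts under 1 were called incompletely in the simulated setting. Signals near the bottom of the scale rest on little light over background.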
